A study of Homo sapiens with 10 samples.

Results

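Pulmonary surfactant is the film of lipid and protein that keeps air spaces open, and the genes described here encode its proteins and the machinery of the alveolar type 2 cells that make it. They were 10 names taken by symbol from the deposited count table: SFTPA1, SFTPA2, SFTPB, SFTPC, SFTPD, SFTA3, NAPSA, LAMP3, SLC34A2 and LPCAT1. SFTA3 stood under 2 identifiers, so the names covered 11 of the 62709 entries with values, and 10 of those 11 had enough reads to be tested, SFTPC being the exception. Their transcripts were counted by RNA-seq in 10 libraries from H441 cells, an established line of epithelial type from a human lung adenocarcinoma, kept in medium with serum. In 3 libraries TET1, which encodes an enzyme that oxidises 5-methylcytosine in DNA, had been disrupted by CRISPR-Cas9 editing of wild-type cells (KO). In 2 libraries the cells overexpressed TET1 transiently, from a transfected plasmid that encodes the whole human protein (OE). A further 2 libraries were labelled as untreated wild type and titled Lipo, a word left unexplained in the labels, and 3 were untreated wild type (WT). No library is labelled as transfected with a plasmid without TET1, so in OE the added TET1 and the transfection cannot be told apart. The labels do not say whether the knockout is 1 clone or a mixed population, what share of cells took up the plasmid, or if the replicates came from independent cultures. The p-values thus measure the spread between these libraries, which may be technical. That spread was pooled over the 4 groups. Libraries lay further apart in KO, and in WT between replicate 1 and the others, than in OE or Lipo.

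In the lung, surfactant is stored in lamellar bodies of alveolar type 2 cells and secreted onto the air-liquid surface. The hydrophobic proteins SP-B and SP-C, from SFTPB and SFTPC, organise the phospholipid film, whereas SP-A, from SFTPA1 and SFTPA2, and SP-D, from SFTPD, are collectins, which bind sugars on microbes. The proprotein of SP-B is cut by proteases that include napsin A, the product of NAPSA. LAMP3 is a membrane protein of lamellar bodies, SLC34A2 is the sodium-phosphate cotransporter of the apical membrane, and LPCAT1 remodels phosphatidylcholine into its disaturated form. The transcription factor NKX2-1 is known to activate several of these genes in lung epithelium.

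TET1 acts on cytosines in CG pairs, so the stretches just upstream of the start sites of 4 members whose transcripts differed between groups are shown with each CG in capitals. They are the reference sequence of RefSeq on GRCh38.p14, 5′ to 3′ on the gene's strand, and they hold no measurement of methylation. SFTPA1 and SFTPA2 are set together because they are neighbouring copies, and SFTPB is shown at both of its annotated start sites.
SFTPA1 (chr10:79610689-79610938, plus strand): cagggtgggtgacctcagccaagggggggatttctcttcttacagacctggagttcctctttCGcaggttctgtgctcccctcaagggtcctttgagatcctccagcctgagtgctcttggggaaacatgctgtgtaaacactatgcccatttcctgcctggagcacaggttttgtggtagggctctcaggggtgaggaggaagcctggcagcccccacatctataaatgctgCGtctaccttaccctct
SFTPA2 (chr10:79560408-79560657, minus strand): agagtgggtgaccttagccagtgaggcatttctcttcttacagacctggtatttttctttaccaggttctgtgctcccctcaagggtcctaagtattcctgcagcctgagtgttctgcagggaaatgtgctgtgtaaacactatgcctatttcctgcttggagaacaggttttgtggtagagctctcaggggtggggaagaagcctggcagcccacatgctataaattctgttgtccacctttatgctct
SFTPB, start site 1 (chr2:85668742-85668991, minus strand): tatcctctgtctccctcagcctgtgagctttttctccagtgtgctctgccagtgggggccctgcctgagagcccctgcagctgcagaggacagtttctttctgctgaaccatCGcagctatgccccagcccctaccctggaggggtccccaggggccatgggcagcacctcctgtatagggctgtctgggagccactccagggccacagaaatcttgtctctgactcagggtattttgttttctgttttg
SFTPB, start site 2 (chr2:85668252-85668449, minus strand): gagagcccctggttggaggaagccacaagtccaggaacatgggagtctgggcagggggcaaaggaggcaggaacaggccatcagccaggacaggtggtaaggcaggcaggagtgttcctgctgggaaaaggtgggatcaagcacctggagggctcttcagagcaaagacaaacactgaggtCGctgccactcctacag
SLC34A2 (chr4:25655601-25655821, plus strand): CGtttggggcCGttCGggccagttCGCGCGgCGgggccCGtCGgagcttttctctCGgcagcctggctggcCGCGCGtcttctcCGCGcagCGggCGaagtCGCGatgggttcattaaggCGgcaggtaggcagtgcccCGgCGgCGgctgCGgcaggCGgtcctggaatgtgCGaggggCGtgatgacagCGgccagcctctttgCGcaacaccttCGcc
Annotated exon bases inside the 250 bases before a start site were left off, which shortened the lines of the second SFTPB site and of SLC34A2. Over the full 250 bases before the start sites shown, SFTPA1 held 2 CG pairs, SFTPA2 0, SFTPB 1 and 3, and SLC34A2 33. At second annotated start sites, not shown, SFTPA2 held 2 and SLC34A2 4. Among the 35116 RefSeq windows of this length the median was 11 CG pairs, 6.06% held 0, 29.3% held at most 3 and 8.15% held at least 33. The SFTPA1 and SFTPA2 lines were identical at 213 of 254 aligned positions (83.86%). Of the 10 names, 8 had an entry in the RefSeq promoter table, and LAMP3 and SFTPC had none. Among the other members matched, SFTPD held 1 CG pair, SFTA3 7 and 12 at its 2 start sites, NAPSA 10 and 3, and LPCAT1 28. The start sites are those of RefSeq. For SLC34A2 and SFTPD they lie within the GENCODE 29 spans given below, and the outer GENCODE starts of these genes were not examined. The first NAPSA site (50369302) and the first SFTA3 site (36519556) lie upstream of the spans given for NAPSA and the main SFTA3 entry. That SFTA3 site lies within NKX2-1 (36516392-36521149).

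Total counts per library lay between 20994462 and 25981097, so 3 reads, the most that a count of 0 allows, correspond to 0.114 to 0.148 CPM. CPM are read counts scaled to a common library size, after edgeR's TMM adjustment of the totals. TET1 had 4, 0 and 8 reads in the KO libraries and 2, 7 and 0 in the WT libraries, so the knockout could not be checked from its transcript, and 881 and 956 CPM in the OE libraries, against 0 and 1 read in the Lipo libraries. The mitochondrial share of counts was 5.44 to 7.25% in KO, 4.74 to 4.89% in OE, 8.04 to 8.72% in Lipo and 5.47 to 6.15% in WT. Of the markers of other lung cells, AGER of alveolar type 1 cells, SCGB1A1 of club cells and MS4A1 of B cells were at 0 in all 10 libraries, but other markers in these lists were expressed. Of 10 alveolar type 1 markers 1 was at 0, and their summed level was 1227 to 1429 CPM in KO, 1485 to 1513 CPM in OE, 1064 to 1099 CPM in Lipo and 1395 to 1540 CPM in WT. The club and secretory list had 5 of 13 markers at 0 and summed to 70.7 to 107 CPM in KO, 175 to 188 CPM in OE, 121 to 129.9 CPM in Lipo and 69.5 to 87.8 CPM in WT. The part of these markers in the members' differences was not tested.

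The line carried a partial set of alveolar type 2 transcripts. To compare genes, levels were divided by exon length, as RPKM (CPM per kilobase of exon), and are given as mean ± SD over 3 libraries in KO and WT and 2 in OE and Lipo. In WT libraries the order was SFTPA1 at 1650.1 ± 97.0 RPKM, SFTPA2 at 1564 ± 184, SLC34A2 at 265 ± 55.5, NAPSA at 112 ± 14.3, SFTPB at 47.3 ± 4.96 and SFTA3 at 25.8 ± 1.53 RPKM. LPCAT1 and LAMP3 followed at 1.82 ± 0.309 and 1.54 ± 0.756 RPKM. SFTPA1 and SFTPA2, and likewise LPCAT1 and LAMP3, differed by less than their spread over libraries, whereas the steps from SFTPA2 down to LPCAT1 exceeded it. SFTPD, the second SFTA3 entry and SFTPC were each under 1 RPKM in the WT libraries. Among the 15832 genes tested, ordered by mean CPM, SFTPA1 stood at rank 15 in KO, 44 in OE, 32 in Lipo and 14 in WT, and SFTPA2 at rank 12, 103, 55 and 13 in the same groups. The 11 entries together took 0.868 to 1.10% of all counts in KO, 0.488 to 0.494% in OE, 0.542 to 0.584% in Lipo and 0.940 to 1.14% in WT, most of it from the SFTPA pair.

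The order differed between groups. In KO libraries NAPSA, at 139 ± 22.8 RPKM, stood above SLC34A2 at 93.8 ± 6.89 RPKM, and SFTA3, at 22.8 ± 1.14, stood above SFTPB at 12.0 ± 2.30 RPKM. In OE libraries LAMP3, at 58.6 ± 0.307 RPKM, was the fifth member, above SFTA3 at 9.77 ± 0.123 and SFTPB at 7.22 ± 0.142 RPKM. In Lipo libraries SFTA3, at 20.5 ± 1.01 RPKM, stood just above SFTPB, at 18.5 ± 0.412 RPKM, and LAMP3 was at 0.947 ± 0.0284 RPKM.

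**Figure D1:**
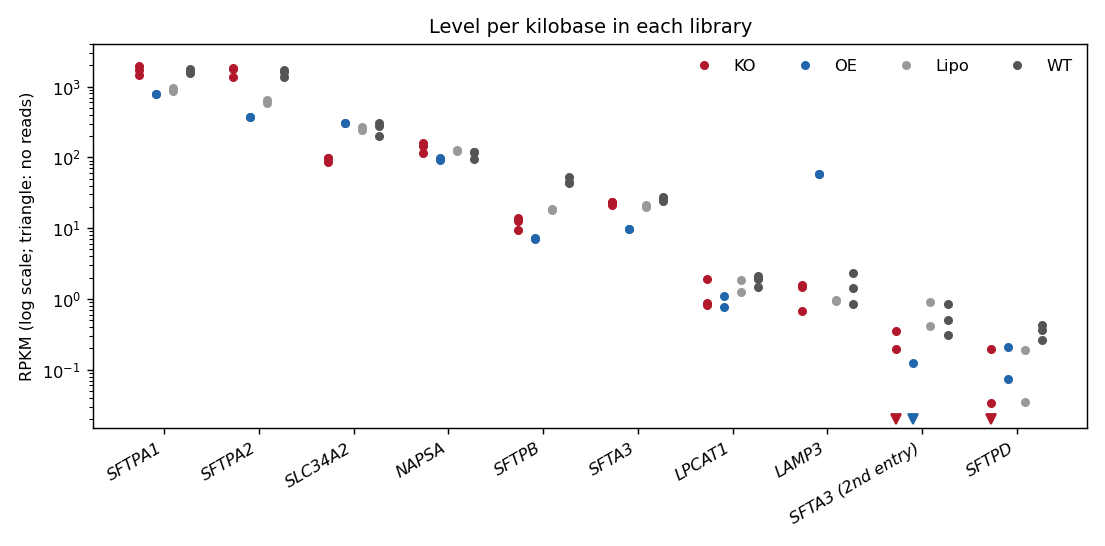
Level of each member per kilobase of exon (RPKM, log scale), ordered by its mean in WT; each point is 1 library, coloured by group, and a triangle marks a library with no reads. SFTPC is not drawn. The SFTPA genes are the highest in each group, SLC34A2 is lowest in KO, SFTPB and SFTA3 are lowest in OE, and LAMP3 stands at 58.6 RPKM in OE, against 0.947 RPKM in Lipo.

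Between KO and WT, 2 of the 10 tested entries passed the test and both were lower in KO, where 12.6% of all 15832 genes passed in either direction, 7.45% as lower and 5.13% as higher. These were SFTPB, the gene of surfactant protein B, and SLC34A2. Between OE and Lipo, 4 of the 10 passed, against 12.3% of all genes. LAMP3 was higher in OE (6.79% of all genes were called higher), and SFTPB, SFTPA2 and SFTA3 were lower (5.53% called lower). Between Lipo and WT, SFTPA1, SFTPA2 and SFTPB passed and were lower in Lipo, 3 of the 10 entries, against 3.70% of all genes in either direction, with 2.38% called lower and 1.32% higher. The median log2 fold change of the 10 entries was -0.46 in KO against WT, -0.55 in OE against Lipo and -0.52 in Lipo against WT, beside medians over all genes of 0.0034, -0.0071 and -0.0169. Here and below a gene passed at an adjusted p under 0.05 in edgeR's quasi-likelihood test, fitted to all 10 libraries. As these are bulk samples, fewer cells with a transcript and less of it per cell cannot be told apart.

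**Figure D2:**
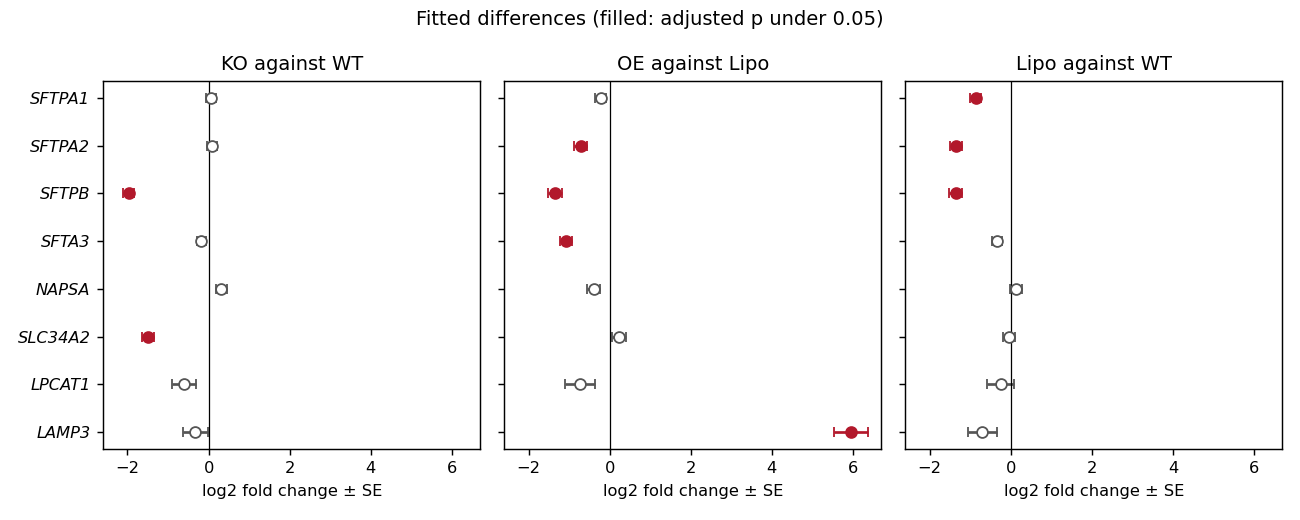
Fitted log2 fold change ± SE (horizontal axis) of 8 members in KO against WT, OE against Lipo and Lipo against WT; filled points passed at an adjusted p under 0.05. SFTPB lies left of 0 and is filled in each panel, at -1.97, -1.35 and -1.36, and LAMP3 lies at 5.95 in OE against Lipo.

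SFTPB (chr2:85657314-85668741, minus strand, GRCh38, GENCODE 29) was the member that differed in each of these 3 comparisons. Its level was 39.1, 51.8 and 57.6 CPM in the KO libraries, against 180.0, 186 and 218 CPM in the WT libraries. The 3 KO values lay below each WT value, at 49.5 ± 9.47 CPM in KO and 194 ± 20.4 CPM in WT (mean ± SD, n = 3 each). In the fit it was 3.93-fold lower in KO (log2 -1.97, SE 0.15, adjusted p = 3.79e-07).

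SFTPB was lower in the OE libraries as well. It was at 30.1 and 29.3 CPM in the OE libraries, against 74.6 and 77.0 CPM in the Lipo libraries. The groups did not overlap, and the level was 2.55-fold lower in OE (log2 -1.35, SE 0.18, adjusted p = 1.27e-04). The Lipo libraries, although labelled wild type, stood 2.56-fold below WT (log2 -1.36, SE 0.16, adjusted p = 6.74e-04). The size of both effects therefore depended on the control. Against Lipo, SFTPB was 1.53-fold lower in KO (adjusted p = 0.0145), and against WT it was 6.55-fold lower in OE (adjusted p = 4.03e-08). The KO effect minus the OE effect was -0.62 on the log2 scale and did not pass (SE 0.22, adjusted p = 0.0723), with a 95% interval of -1.10 to -0.14. Intervals here are not adjusted for the number of genes tested. The difference passed without KO replicate 3 (adjusted p = 0.022).

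The other hydrophobic surfactant protein gene, SFTPC (chr8:22156913-22164479), whose product is among the most specific markers of alveolar type 2 cells, was close to absent. It had 2 reads in WT replicate 1 and 0 reads in each of the other 9 libraries. Over a group, a count of 0 allows 0.042 CPM in KO, 0.0713 CPM in OE and 0.0652 CPM in Lipo, counting error only. No difference between groups could be detected at this depth.

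The collectin genes SFTPA1 (chr10:79610939-79615455, plus strand) and SFTPA2 (chr10:79555852-79560402, minus strand) lie 50537 bases apart and encode near-identical proteins. Of the 50-base windows of SFTPA1 transcripts, 22.44% occur unchanged in SFTPA2 transcripts, and of the 150-base windows 4.726%. How reads matching both were counted is not given in the sources used here, so the split between the genes is uncertain and their sum is given as well.

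SFTPA1 was at 4800.4, 3625 and 4202 CPM in the KO libraries, against 3845, 3981 and 4307 CPM in the WT libraries. SFTPA2 was at 4818, 3632 and 4933 CPM in KO, against 3683, 4269 and 4667 CPM in WT. For each gene the KO values spanned the WT values, with KO replicate 2 lowest of the 6 libraries. The fitted KO difference was 0.06 for SFTPA1 (log2, adjusted p = 0.812) with a 95% interval of -0.19 to 0.31. For SFTPA2 it was 0.08 (adjusted p = 0.743) with an interval of -0.20 to 0.37. Against Lipo as the control, both passed as higher in KO, SFTPA1 at log2 0.91 (adjusted p = 3.72e-04) and SFTPA2 at 1.44 (adjusted p = 2.49e-05).

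In the OE libraries SFTPA2 was at 1005 and 1008 CPM, against 1578 and 1711 CPM in the Lipo libraries. The values did not overlap, and SFTPA2 was 1.63-fold lower in OE (log2 -0.71, SE 0.16, adjusted p = 0.0102). That call rested on having both libraries of each group: it was lost without OE replicate 1 (adjusted p = 0.0976), OE replicate 2 (0.0853), Lipo replicate 2 (0.0513) or Lipo replicate 3 (0.107). SFTPA1 was at 1903 and 1922 CPM in OE, against 2121 and 2345 CPM in Lipo, without overlap. Its difference did not pass (log2 -0.22, SE 0.14, adjusted p = 0.356), but did in a fit of OE and Lipo alone (adjusted p = 2.84e-05). Against WT as the control both were lower in OE, SFTPA1 2.11-fold (adjusted p = 5.56e-05) and SFTPA2 4.18-fold (adjusted p = 2.80e-07).

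Lipo stood apart from WT in the same genes. SFTPA1 averaged 2233 ± 158 CPM in Lipo (n = 2) and 4044 ± 238 CPM in WT (n = 3), and SFTPA2 averaged 1644 ± 94.4 CPM in Lipo and 4206 ± 495 CPM in WT. SFTPA1 was 1.81-fold lower in Lipo (log2 -0.86, adjusted p = 0.00345) and SFTPA2 2.56-fold lower (log2 -1.36, adjusted p = 5.72e-04). The SFTPA1 call was lost without Lipo replicate 2 (adjusted p = 0.0878) or Lipo replicate 3 (0.0764).

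Taking SFTPA1 and SFTPA2 as 1 transcript pool, the pair averaged 8670.2 ± 1248 CPM in KO, 2919 ± 15.8 CPM in OE, 3877 ± 253 CPM in Lipo and 8251 ± 723 CPM in WT. The pooled level was 2.13-fold lower in Lipo than in WT (log2 -1.09, SE 0.14, adjusted p = 0.00112). It did not pass in KO against WT (log2 0.07, adjusted p = 0.768) or in OE against Lipo (log2 -0.41, SE 0.15, adjusted p = 0.0913). SFTPA2 supplied 50.1, 50.05 and 54.0% of the pair's reads in the KO libraries, 34.5 and 34.4% in the OE libraries, 42.7 and 42.2% in the Lipo libraries and 48.9, 51.7 and 52.0% in the WT libraries. The share was lowest in OE, next lowest in Lipo, and overlapped between KO and WT, and it was not tested apart from the levels.

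**Figure D3:**
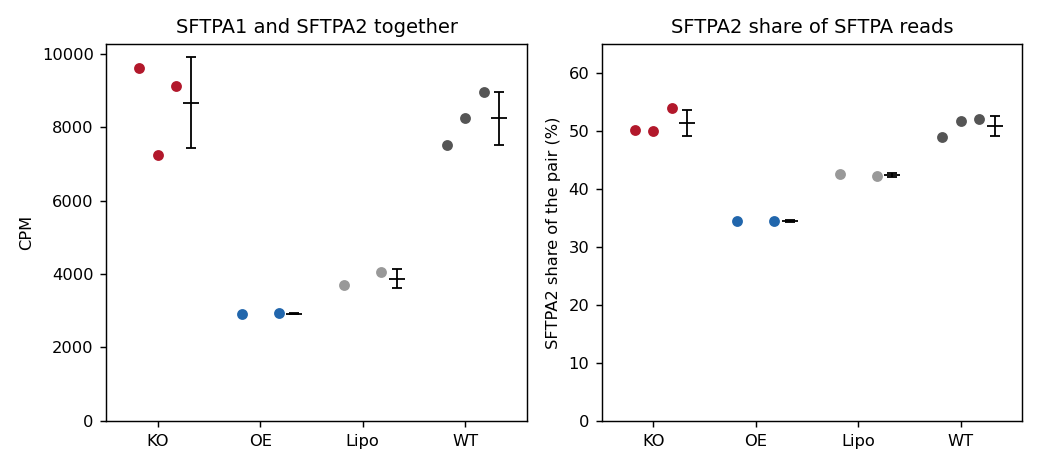
Summed SFTPA1 and SFTPA2 level (left, CPM) and the SFTPA2 share of the pair's reads (right, %); points are libraries, and the black mark beside each group is its mean ± SD (n = 3 in KO and WT, n = 2 in OE and Lipo). The share is 34.5% in OE and 42.4% in Lipo, below the 51.4% of KO and the 50.9% of WT.

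The third collectin gene, SFTPD (chr10:79937740-79982614, minus strand), was at the limit of detection. It had 1, 0 and 6 reads in the KO libraries, 2 and 6 in the OE libraries, 6 and 1 in the Lipo libraries and 11, 15 and 8 in the WT libraries. The KO counts lay below each WT count, but the difference did not pass (log2 -2.18, SE 0.97, adjusted p = 0.166). The sign of the OE difference turned with the control, at 0.32 against Lipo and -1.28 against WT, neither of which passed.

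SFTA3, surfactant associated 3, stands beside NKX2-1: its main entry (ENSG00000229415, chr14:36473288-36513829, minus strand) lies 2563 bases from that gene on the same strand. It was at 30.6 and 30.1 CPM in the OE libraries, against 66.1 and 61.6 CPM in the Lipo libraries. Both OE values were less than any value of the other 8 libraries, and SFTA3 was 2.102-fold lower in OE (log2 -1.07, SE 0.14, adjusted p = 1.27e-04). It was at 73.7, 71.8 and 66.9 CPM in KO, against 84.2, 81.7 and 75.1 CPM in WT. These did not overlap either, but the KO difference was small and did not pass (log2 -0.18, adjusted p = 0.327). The sign turned to 0.15 with Lipo as the control.

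NKX2-1, the lung lineage factor next to SFTA3, was at 214 ± 1.39 CPM in OE and 214 ± 3.69 CPM in Lipo, and its difference between them did not pass (log2 0.00, adjusted p = 0.996). It was at 269 ± 50.8 CPM in KO and 258 ± 23.7 CPM in WT (log2 0.06, adjusted p = 0.829). Its values in these 2 comparisons were chosen for display after they had been seen. NKX2-1-AS1, an antisense transcript that overlaps NKX2-1, was lower in OE, at 10.4 ± 0.562 CPM, against 20.7 ± 2.12 CPM in Lipo (log2 -0.99, adjusted p = 0.0245). Whether reads were counted by strand is not given in the sources used here, so reads of the overlapping genes may have been shared. The second SFTA3 entry (ENSG00000257520, named AL132857.1 in GENCODE 29) shares 87.9% of its exon bases with the main entry and 4.839% with NKX2-1. It had 5, 0 and 9 reads in KO, 0 and 3 in OE, 11 and 22 in Lipo and 13, 25 and 8 in WT, and passed in no comparison.

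SLC34A2 (chr4:25648011-25678748, plus strand), the type 2 cell phosphate cotransporter, was lower in KO. It was at 433, 493 and 494 CPM in the KO libraries, against 1024, 1418 and 1565 CPM in the WT libraries. The 3 KO values lay close together and below each of the other 7 libraries. SLC34A2 was 2.82-fold lower in KO (log2 -1.497, SE 0.14, adjusted p = 5.93e-06), and the call and its size held with Lipo as the control (log2 -1.46, adjusted p = 2.09e-05).

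In the OE libraries SLC34A2 was at 1526 and 1528 CPM, against 1246 and 1351 CPM in the Lipo libraries. The difference did not pass (log2 0.23, adjusted p = 0.422), with a 95% interval of -0.13 to 0.60. It passed in a fit of OE and Lipo alone (adjusted p = 1.44e-05). Lipo and WT overlapped (log2 -0.04, adjusted p = 0.923), with an interval of -0.37 to 0.29. The KO effect and the OE effect differed by -1.73 (log2, SE 0.22, adjusted p = 8.03e-05).

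LAMP3 (chr3:183122213-183163839, minus strand) was the member called higher in OE. Known also as DC-LAMP, it marks mature dendritic cells besides lamellar bodies, and its transcription is known to be induced by interferon. It was at 222.9 and 224.5 CPM in the OE libraries, against 3.54 and 3.69 CPM in the Lipo libraries. LAMP3 was 61.9-fold higher in OE (log2 5.95, SE 0.42, adjusted p = 1.70e-07), and 38.1-fold higher against WT. The KO libraries were at 5.91, 5.54 and 2.60 CPM and the WT libraries at 8.95, 5.42 and 3.24 CPM, which overlapped (log2 -0.32, adjusted p = 0.567). Against Lipo the KO sign turned to 0.38.

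The interferon-stimulated genes, like LAMP3, were higher in OE, whereas in KO against WT some of them passed and LAMP3 did not. The 10 genes of that list all passed as higher in OE than in Lipo (12.3% of all genes passed). In KO against WT 3 were higher and 2 lower (12.6% of all genes passed), and 1 was higher in Lipo than in WT (3.70% passed). Their summed level was 8939 to 9089 CPM in OE, against 213 to 235 CPM in Lipo. IFIT2, an antiviral protein gene, was at 667 ± 22.8 CPM in OE and 7.36 ± 0.359 CPM in Lipo (log2 6.50, adjusted p = 9.20e-12), and OAS2, an activator of RNase L, at 1561 ± 16.01 CPM in OE and 2.15 ± 0.847 CPM in Lipo. Of 12 leukocyte markers 3 were testable, and CD83, another marker of mature dendritic cells, was the only 1 of them to pass, at 64.7 ± 0.418 CPM in OE and 11.6 ± 1.98 CPM in Lipo (log2 2.48, adjusted p = 3.74e-07). The summed leukocyte list was 68.1 to 69.2 CPM in OE, against 13.0 to 15.5 CPM in Lipo, most of it from CD83. The other testable markers were CSF1R (log2 0.91, adjusted p = 0.167) and CD14 (log2 -0.39, adjusted p = 0.757). The part of the interferon-stimulated genes and of these markers in the LAMP3 difference was not tested. LAMP2, a related gene for a lysosomal membrane protein, did not pass, at 80.7 ± 3.03 CPM in OE and 106 ± 1.59 CPM in Lipo (log2 -0.40, adjusted p = 0.140). The related LAMP1 did not pass either (log2 0.05, adjusted p = 0.843). Nor did CD68, at 2.71 ± 0.909 CPM in OE and 0.837 ± 0.346 CPM in Lipo (log2 1.69, adjusted p = 0.101).

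NAPSA (chr19:50358477-50365830, minus strand), the napsin A protease gene and a diagnostic marker of lung adenocarcinoma, was at 410.5, 517 and 571 CPM in the KO libraries, against 342, 429 and 433 CPM in the WT libraries. It was at 326 and 349 CPM in OE, against 451 and 435 CPM in Lipo. The KO and WT values overlapped and the OE and Lipo values did not. Neither difference passed, at log2 0.31 in KO (adjusted p = 0.145) and -0.39 in OE (adjusted p = 0.142). In a fit of the OE and Lipo libraries alone the OE difference passed (adjusted p = 7.24e-09). The KO difference passed without KO replicate 1 (log2 0.44, adjusted p = 0.0275).

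LPCAT1 (chr5:1456480-1523977, minus strand), the acyltransferase, was at 5.29, 12.4 and 5.71 CPM in KO, against 9.60, 13.5 and 12.3 CPM in WT. It was at 4.93 and 7.12 CPM in OE, against 11.9 and 8.02 CPM in Lipo. KO and WT overlapped through KO replicate 2. The differences did not pass, at log2 -0.60 in KO (adjusted p = 0.214) and -0.73 in OE (adjusted p = 0.231). Without KO replicate 2 the KO difference was -1.10 (adjusted p = 0.0162), and the OE difference passed in a fit of OE and Lipo alone (adjusted p = 0.0112).

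**Figure D4:**
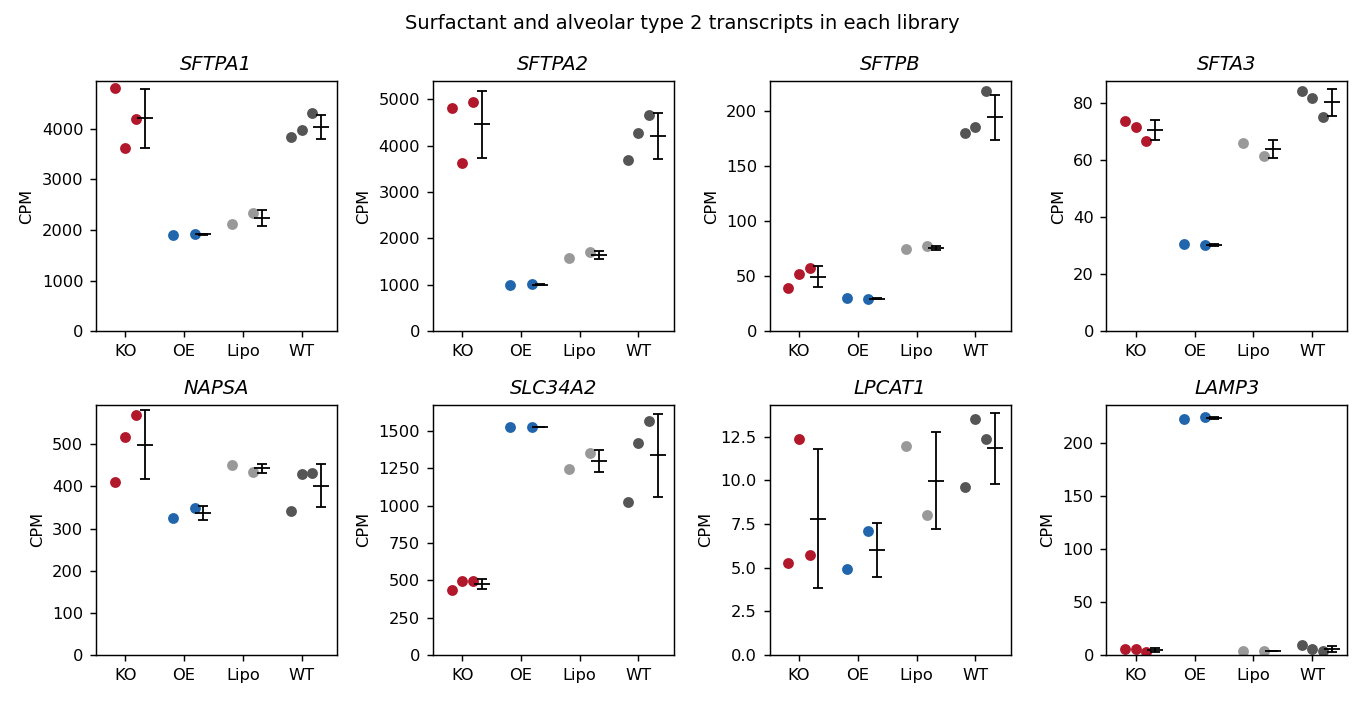
CPM of 8 members in each library, 1 panel per gene with its own axis from 0; points are libraries and the black mark is the mean ± SD of the group (n = 3 in KO and WT, n = 2 in OE and Lipo). SLC34A2 is low in KO alone, at 473 CPM, SFTPB is lower in KO, OE and Lipo than in WT, and LAMP3 is at 224 CPM in OE, against 3.61 CPM in Lipo.

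The KO effect was also set against the OE effect in 1 test, KO against WT minus OE against Lipo. Of the 10 entries 5 passed, 3 with the KO effect higher and 2 with it lower, against 16.6% of all genes, 7.16% higher and 9.47% lower. The KO effect was lower for LAMP3 (log2 -6.27, adjusted p = 7.64e-07) and for SLC34A2, given above. It was higher for SFTA3 (0.89, adjusted p = 0.00331), SFTPA2 (0.79, adjusted p = 0.0175) and NAPSA (0.71, adjusted p = 0.0345). The NAPSA call was lost without KO replicate 2 (adjusted p = 0.0609), OE replicate 1 (0.148), OE replicate 2 (0.0865), Lipo replicate 2 (0.12) or Lipo replicate 3 (0.103). The SFTPA2 call was lost without OE replicate 1 (0.0808), OE replicate 2 (0.0707), Lipo replicate 2 (0.0505) or Lipo replicate 3 (0.0935). For SFTPA1 and SFTPA2 summed, the effects differed by 0.48 (adjusted p = 0.105). With each group set against the other wild-type group, 1 member was higher and 4 were lower in OE against WT (25.0% of all genes called in either direction), and 2 were higher and 2 lower in KO against Lipo (17.4% called).

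Other alveolar type 2 genes were read beside the members. Of 22 listed names 12 were testable, and CD36, WIF1, HHIP, LPL, LRRK2 and SFTA2 were at 0 in all 10 libraries. In KO against WT 4 were lower, in OE against Lipo 1 higher and 4 lower, and in Lipo against WT 2 higher and 3 lower. The shares of all genes that passed in these comparisons were 12.6, 12.3 and 3.70%. HOPX, a homeodomain cofactor of alveolar epithelium, differed in the same 3 comparisons as SFTPB: it averaged 50.9 ± 6.71 CPM in KO, 27.5 ± 1.69 CPM in OE, 53.1 ± 1.03 CPM in Lipo and 96.9 ± 7.69 CPM in WT. Its log2 difference was -0.93 in KO against WT (adjusted p = 2.12e-04), -0.95 in OE against Lipo (adjusted p = 0.00124) and -0.87 in Lipo against WT (adjusted p = 0.00497). MFSD2A, a lysophospholipid transporter, was lower in KO, at 4.64 ± 0.402 CPM, against 12.3 ± 3.09 CPM in WT (log2 -1.40, adjusted p = 4.14e-04). ADGRF5, the receptor that restrains surfactant pool size in mice, was lower in OE, at 80.6 ± 0.297 CPM, against 169.6 ± 1.27 CPM in Lipo (log2 -1.07, adjusted p = 5.49e-04). SFTA1P, a pseudogene transcript of this set, was lower in KO than in WT (log2 -1.01, adjusted p = 0.0232) and higher in OE than in Lipo (log2 2.32, adjusted p = 2.13e-04). ROS1, a receptor tyrosine kinase gene, was lower in KO than in WT (log2 -1.09, adjusted p = 0.00445) and lower in Lipo than in WT (log2 -2.37, adjusted p = 6.31e-04).

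Lipid synthesis for surfactant was read from 24 names, 23 of them testable, and FABP5 was at 0 in all 10 libraries. In KO against WT 2 were higher and 2 lower, in OE against Lipo 5 were lower, and in Lipo against WT 2 were higher. Beside these counts, 12.6, 12.3 and 3.70% of all genes passed. LPIN2, which makes the diacylglycerol used for phosphatidylcholine, was at 29.1 ± 1.87 CPM in KO and 92.7 ± 19.5 CPM in WT (log2 -1.67, adjusted p = 3.35e-06). CHPT1, the cholinephosphotransferase that joins diacylglycerol to choline, was at 4.04 ± 0.944 CPM in KO and 0.416 ± 0.111 CPM in WT (log2 3.26, adjusted p = 2.02e-04). PCYT1A, the rate-limiting enzyme of that route, was lower in KO (log2 -0.43, adjusted p = 0.0427). SCD, a fatty acid desaturase gene, was at 1561 ± 19.0 CPM in OE and 2279.6 ± 25.4 CPM in Lipo (log2 -0.55, adjusted p = 0.0390). Lipo itself was above WT for SCD (log2 0.69, adjusted p = 0.0163), and the OE mean was not below the 1413 ± 183 CPM of WT. FITM2, which acts in lipid droplet formation, was lower in OE (log2 -1.68, adjusted p = 3.79e-04).

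Among 24 regulators of lung lineage and surfactant genes, 22 were testable. In KO against WT 1 was higher and 1 lower, in OE against Lipo 2 were higher and 2 lower, and in Lipo against WT 4 were higher. Over all genes 12.6, 12.3 and 3.70% passed in these comparisons. NFIA was higher in KO than in WT (log2 0.78, adjusted p = 0.00148) and lower in OE than in Lipo (log2 -0.99, adjusted p = 0.00137). SOX9, a factor of the distal lung progenitor, was at 23.2 ± 0.197 CPM in OE and 7.28 ± 0.764 CPM in Lipo (log2 1.67, adjusted p = 1.21e-04), and GATA6, which acts with NKX2-1, at 13.2 ± 1.502 CPM in OE and 4.61 ± 0.135 CPM in Lipo (log2 1.52, adjusted p = 0.00156). FOXA2, a forkhead factor of lung epithelium, was lower in OE than in Lipo (log2 -1.31, adjusted p = 0.0191) and higher in Lipo than in WT (log2 1.80, adjusted p = 0.00477). CEBPD, a C/EBP factor, was higher in Lipo than in WT (log2 1.41, adjusted p = 0.00477). Of 18 relatives and neighbours of the members 9 were testable, and those that passed in KO against WT, OE against Lipo or Lipo against WT were LAMP1, lower in KO (log2 -0.43, adjusted p = 0.0176), and NKX2-1-AS1, given above. For the KO effect against the OE effect LPCAT3, the gene of another lysophospholipid acyltransferase, passed as higher (log2 0.71, adjusted p = 0.0227).

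Markers of other cell types were counted in the same way. The share of all genes that passed was 12.6% in KO against WT, 12.3% in OE against Lipo and 3.70% in Lipo against WT. Of 7 testable alveolar type 1 markers 1 was lower in KO than in WT, 2 were higher and 2 lower in OE than in Lipo, and 1 was lower in Lipo than in WT. CAV1, the caveolin gene, was lower in KO (log2 -0.47, adjusted p = 0.0254) and higher in OE (log2 0.57, adjusted p = 0.0293). It was also lower in Lipo than in WT (log2 -1.06, adjusted p = 0.00163), and its mean of 326 ± 5.50 CPM in OE lay above the 220.3 ± 7.07 CPM of Lipo and below the 459.5 ± 77.2 CPM of WT. Of 5 testable club and secretory markers the calls were those of LCN2: this gene of a secreted iron-binding protein was higher in OE than in Lipo (log2 0.67, adjusted p = 0.0324) and in Lipo than in WT (log2 0.97, adjusted p = 0.00652). Of 3 ciliated markers 1 was lower in OE and 2 were lower in Lipo. Of 2 basal markers 1 was lower in KO and 1 higher in OE, and of 5 fibroblast and endothelial markers 2 were lower in KO and 2 higher in OE, both times COL1A1 and LUM. The summed fibroblast and endothelial level was 71.8 to 78.4 CPM in KO, 345 to 353 CPM in OE, 172 to 185 CPM in Lipo and 179 to 290.2 CPM in WT, with DCN, PDGFRB and CLDN5 at 0. Its part in the differences of the members was not tested.

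For each tested member the 3 genes with the most similar profile over the 10 libraries were sought by Pearson's r of log2 CPM, as a description, since libraries of a group share their treatment. LAMP3 was followed by BIRC3 (r = 0.995), SOD2 (0.994) and DTX3L (0.992). SFTPA1 and SFTPA2 stood in each other's lists (r = 0.988), with OGT beside SFTPA1 (0.988) and TTLL3 beside SFTPA2 (0.990). SFTPB was most like KRT16P2 (0.966), ATP13A4 (0.957) and HOPX (0.942). SLC34A2 was most like GNG4 (0.990), GPR37 (0.985) and PYGB (0.983), SFTA3 like CPE (0.998), APLP2 (0.990) and GALNT12 (0.980), and NAPSA like C1QTNF6 (0.979), WDR54 (0.978) and SEMA4A (0.970). LPCAT1, at low counts, reached at most 0.918, with SNRNP200.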

How the data were processed

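Raw read counts per gene in 10 libraries were deposited by the authors in 1 table, without normalization, as whole numbers. Per the labels' protocols, 1.0 µg of total RNA went into library construction with a kit for stranded total RNA. Per the submitters' processing notes, the tools included featureCounts, HISAT2 2.1.0, edgeR and FastQC, on build GRCh38, with no role given. Counting by strand and the treatment of multiply mapped reads are not given in the sources used here. Another 2 columns of the table fit no listed sample and were left out, and 1 of 62710 entries (ANK2) had no values.

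The test was that of edgeR 4.0.16 under R 4.3.3: filterByExpr on the 4 groups (15832 genes kept), TMM, a robust quasi-likelihood fit to all 10 libraries (4 group means, 6 residual degrees of freedom), two-sided tests, and Benjamini-Hochberg adjustment over all genes tested. The SE is the log2 fold change divided by the square root of F. RPKM used union exon lengths of GENCODE 29. Floors use 3 counts. The procedure was tested on simulated counts drawn with the same spread in all groups, so unequal spread between groups was not tested. Alternatives were DESeq2 1.42.0, other scalings, filters, controls, a replicate block, each library left out and, chosen after seeing the data, SFTPA1 and SFTPA2 summed. Genes named beside the members were, per list and comparison, up to 4 with the smallest p. The members and lists were chosen with earlier results of these data known.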

Additional observations from a re-analysis of the deposited data

How the results depend on the processing

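SFTPB and SLC34A2 in KO, LAMP3, SFTPB and SFTA3 in OE, and SFTPB and SFTPA2 in Lipo kept their direction and their call under each alternative that was run, including DESeq2. Over all alternatives for the members' differences, 197 of 210 values in KO against WT kept direction and call, 184 of 200 in OE against Lipo, 171 of 180 in Lipo against WT, and 154 of 170 for the KO effect against the OE effect. Members that passed in neither fit count as kept. Fits without a library from a group outside the comparison are included, so these shares are no measure of how firm the calls are.

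The numbers of genes called were 1992 in KO against WT, 1950 in OE against Lipo and 586 in Lipo against WT. With no filter on low counts 1100.0 were called in Lipo against WT, and 992 by DESeq2. Fitting only the groups compared gave 1236 in KO against WT, and in OE against Lipo 5669 with 9 members called (2 higher, 7 lower), a fit of 4 libraries. The members added there were SFTPA1, NAPSA, LPCAT1, SLC34A2 and the second SFTA3 entry (adjusted p = 0.0415), with log2 values close to those of the main fit. With WT as the control for OE 3953 genes were called. Leaving out each library in turn gave 1118 to 2309 genes in KO against WT, 673 to 2661 in OE against Lipo, 29 to 981 in Lipo against WT and 1373 to 3007 for the KO effect against the OE effect. The members called were then 2 to 3, 3 to 4, 2 to 3 and 3 to 6 in the same comparisons. The lowest counts came without WT replicate 2 in KO against WT and without Lipo replicate 3 in the other comparisons, and in Lipo against WT 59 genes were called without Lipo replicate 2. A group left with 1 library was assumed to vary like the others.

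KO and WT libraries of the same number had correlated deviations of 0.33, 0.058 and 0.18, against -0.24 to 0.092 for different numbers. The main fit did not pair the libraries, so any shared deviation by number stayed in its spread. WT replicate 2 correlated best with KO replicate 3, and the other 5 libraries best with their own number. A replicate block called 3393 genes and 4 members with KO and WT alone, and 4 members with all 10 libraries. NAPSA (adjusted p = 0.0368 and 0.0431) and LPCAT1 (0.0104 and 0.0213) were added in KO against WT, and with all 10 libraries SFTPB passed for the KO effect against the OE effect (0.00617).

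Signs that turned belonged to differences that had not passed. With the block over all 10 libraries the second SFTA3 entry was at -0.0439 in Lipo against WT, and LPCAT1 at -0.0456 for the KO effect against the OE effect. SFTPD in OE was at -1.28 with WT as the control and -0.84 with the 5 wild-type libraries as control, and SFTPA1 in OE passed with either control. With Lipo as the control for KO 4 members were called, LAMP3 was at 0.38 and SFTA3 at 0.15. Leaving out a library moved SFTPA1 from -0.0475 to 0.15, SFTPA2 from -0.00204 to 0.21 and LAMP3 from -0.61 to 0.11 in KO against WT, SLC34A2 from -0.20 to 0.0887, LPCAT1 from -0.56 to 0.0138 and the second SFTA3 entry from -0.45 to 0.67 in Lipo against WT, SFTPD from -0.59 to 1.93 in OE against Lipo, and LPCAT1 from -0.38 to 0.43 for the KO effect against the OE effect. The cause was not tested. SFTPC, SFTPD and the second SFTA3 entry are limited by depth.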
